A study of Mus musculus with 10 samples.

Results

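The replication-independent histone variants are the histone genes that are transcribed outside S phase from single genes spread over the genome, rather than from the histone gene clusters. The members were chosen by gene name and not by a cutoff on measured values. Earlier results of these data were known at that time. They were H3f3a and H3f3b, H2afz and H2afv, H2afx, H2afy and H2afy2, H1f0 and H1fx, which are 9 of the 31053 genes in the deposited matrices. They were followed at E16.5 in mouse cortex. The groups were 3 wild-type embryos (WT), 4 embryos with 1 Gatad2b stop allele (Gatad2b stop/+, Het) and 3 embryos with that allele on both chromosomes (Gatad2b stop/stop, KO). Each embryo gave 1 library. The stop allele is a gene-trap cassette in an intron, which every cell of the animal carries, and the study kept the mice on a C57BL/6N-A tm1Brd background. Gatad2b encodes a subunit of NuRD, a complex that remodels nucleosomes and removes acetyl groups from histones.

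Clustered histone genes are switched on when DNA is copied and supply most of the histones of new chromatin. Variant genes are expressed through the cell cycle and after it, so neurons, which no longer divide, rely on them to replace histones. H3f3a and H3f3b encode the same protein, H3.3, which chaperones place at active genes and at telomeric and other repeats. H2afz and H2afv encode the H2A.Z proteins found at promoters. H2afx encodes H2A.X, which is phosphorylated at DNA breaks and whose gene is also transcribed more strongly in S phase. H2afy and H2afy2 encode the macroH2A proteins, which carry a large extra domain and are linked to gene repression. H1f0 and H1fx encode linker histones, and H1f0 is known for accumulating in cells that stop dividing.

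Transcripts were counted as unique molecular identifiers (UMIs) per gene and cell with a 10X 3′ kit. Requiring 1000 UMIs and allowing 10% of them to be mitochondrial left 65779 of 80071 barcodes, with 82872641 to 123737385 UMIs per embryo. Median UMIs per cell ranged from 10795 to 14844 in WT embryos. They ranged from 13218 to 14860 in Het embryos and from 14324.5 to 17077.5 in KO embryos. The median mitochondrial percent of UMIs was 3.72 to 3.97 in WT embryos and 3.60 in Het 4. It was 4.34 to 4.66 in Het 1 to 3 and 4.31 to 4.58 in KO embryos. Barcodes numbered 9271 to 10386 in WT, 9338 in Het 4, 6503 to 7510 in Het 1 to 3 and 5996 to 7306 in KO. The part of these differences in the results was not tested. The library names carried 1 of 2 prefixes. WT 1 to 3 and Het 4 had the first, and Het 1 to 3 and KO 1 to 3 had the second. KO and WT therefore differed in prefix as well as in genotype. A fit with the prefix as a covariate takes the prefix effect only from Het 4 against Het 1 to 3, so it rests on 1 embryo. Gatad2b itself was at 134 ± 4.35 CPM (UMIs scaled to a common library size after TMM normalization, mean ± SD, n = 3) in WT, 92.4 ± 2.97 (n = 4) in Het and 53.7 ± 3.28 (n = 3) in KO embryos. Its log2 fold change was -1.32 ± 0.05 (standard error) in KO vs WT, with an adjusted p of 1.11e-07 (edgeR). Clusters were named from marker lists and are called "-like". Tests within classes were limited to 11 classes with 20 or more cells from each embryo. Members were not used for clustering. The clusters of named classes had 5 to 13 of their listed markers in at least 10% of their cells. The ganglionic eminence progenitor-like cluster was led by mitosis genes such as Top2a. The microglia-like cells, at 21 to 43 per embryo, had low counts. The interneuron-like class held a shallow cluster of 1130 cells with a median of 1947 UMIs. It also held a cluster of 296 cells whose layer II-IV marker score, 0.97, was above its interneuron score, 0.68. The part of these clusters in the results was not tested.

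In WT embryos, members had a broad pattern, high levels in progenitor-like classes or, for H2afy2, high levels in inhibitory neuron-like classes. H3f3a and H3f3b, the H3.3 genes, were abundant in every class but erythroid-like cells. H3f3a ranged from 1544 ± 127 CPM (SD, n = 3) in mural and fibroblast-like cells to 3537 ± 181 in ganglionic eminence progenitor-like cells. H3f3b ranged from 1860 ± 87.4 in layer I-like to 3907 ± 121 in subventricular zone progenitor-like cells. In erythroid-like cells, which lose their nucleus, H3f3a was at 657 ± 32.9 and H3f3b at 137 ± 17.4 CPM. The highest classes of H3f3a, ganglionic eminence progenitor-like and striatal inhibitory-like, overlapped between embryos, as did subventricular zone progenitor-like and interneuron-like cells below them.

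The H2A.Z genes and H2afx were highest where cells divided. H2afz was at 3925 ± 91.8 CPM in ganglionic eminence progenitor-like, 2618 ± 204 in radial glia-like and 1704 ± 135 in subventricular zone progenitor-like cells. These classes did not overlap for H2afz. It was at 708 ± 13.4 in layer II-IV-like and 482 ± 3.36 in layer V-VI-like neurons. H2afv followed the same order at the top, with 1584 ± 91.9, 835 ± 41.5 and 819 ± 42.9 CPM in those progenitor-like classes, of which the last pair overlapped. Its levels in layer V-VI-like neurons, at 145 to 151, overlapped with those in layer I-like neurons, at 139.8 to 160.3. H2afx had the steepest pattern, from 721 ± 22.7 CPM in ganglionic eminence progenitor-like cells to between 51.3 and 69.1 in neuron-like classes. H2afx in radial glia-like cells, at 273 ± 45.4, overlapped with subventricular zone progenitor-like cells at 240.4 ± 45.3.

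The macroH2A genes differed from each other. H2afy was highest in progenitor-like classes, with 536 ± 24.9 CPM in ganglionic eminence progenitor-like, 528 ± 21.7 in subventricular zone progenitor-like and 502 ± 8.71 in radial glia-like cells. The first and second of these overlapped, and the third lay below them. H2afy2 was highest in inhibitory neurons, at 305 ± 11.9 in interneuron-like and 298 ± 8.41 in striatal inhibitory-like cells, which overlapped, and was at 105 ± 7.20 in radial glia-like and 35.4 to 44.9 in mural and fibroblast-like cells. Among linker histones, H1f0 was at 444 ± 19.1 CPM in ganglionic eminence progenitor-like and 442 ± 21.9 in subventricular zone progenitor-like cells, and at 64.1 ± 2.91 in layer V-VI-like neurons. H1fx was at 725 ± 17.0 in ganglionic eminence progenitor-like cells and 193 ± 3.44 in layer II-IV-like neurons. Among neural classes, H1f0 was thus lowest in deep-layer neurons at this age.

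**Figure D1:**
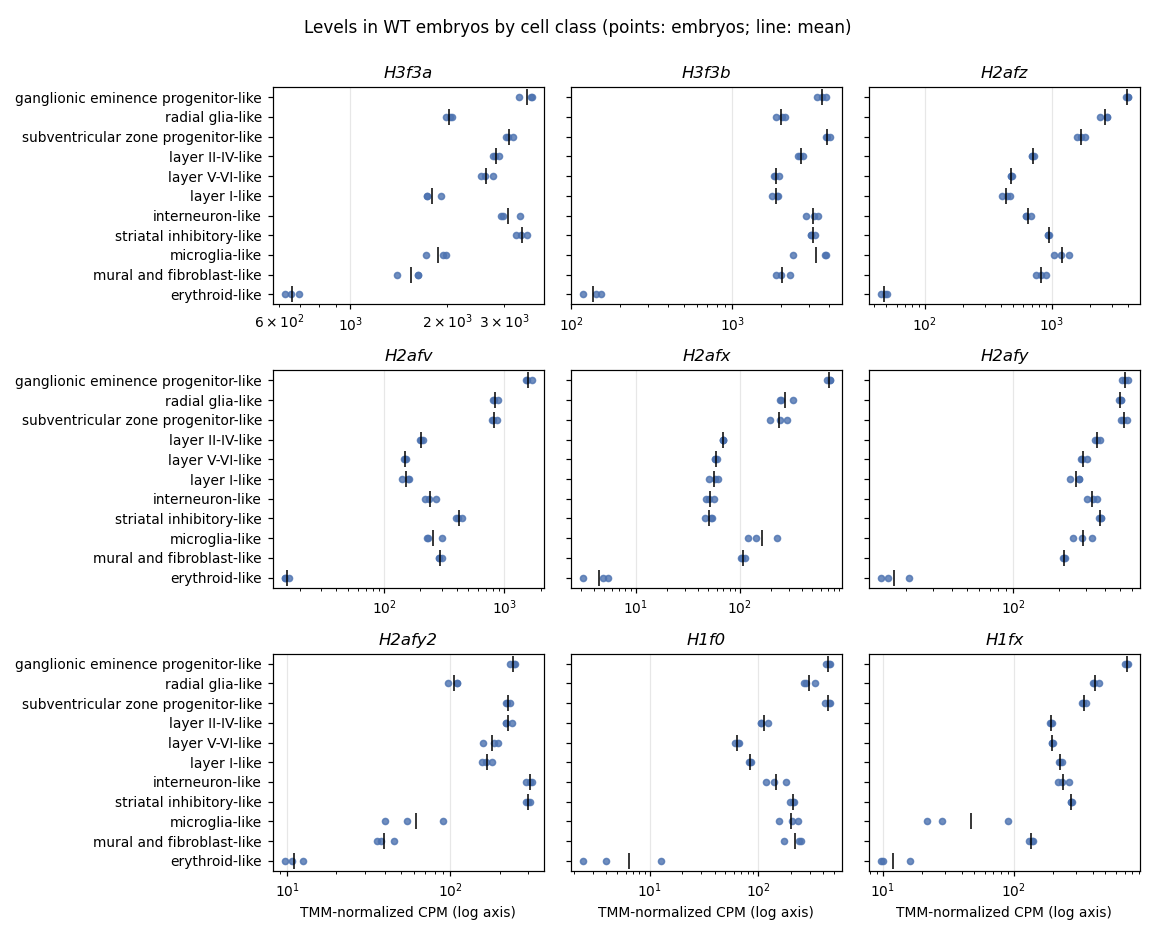
Levels of the 9 genes in WT embryos, as TMM-normalized CPM on log axes, by cell class. Points are the 3 embryos and the line is their mean. H2afz, H2afv, H2afx, H1f0 and H1fx lay highest in progenitor-like classes, H2afy2 in inhibitory neuron-like classes, and H3f3a and H3f3b were above 1500 in every class but erythroid-like and the lowest embryo of H3f3a in mural and fibroblast-like cells.

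As a description over the 11 classes, the genes whose WT pattern was most like that of H2afz were Dek (r = 0.986), Rnaseh2b (0.986) and Rfc4 (0.985), among 10128 genes with at least 20 CPM in a class. Dek encodes a chromatin protein that handles H3.3, and Rfc4 a part of the clamp loader of DNA replication. For H2afx they were Cks1b (r = 0.986), Hist1h4d (0.986) and Ncapg2 (0.984), a cell cycle kinase subunit, a clustered histone and a condensin subunit. H3f3b was most like Depdc5 (r = 0.989), Gps2 (0.988) and Slf2 (0.987). H1f0 was most like Katna1 (r = 0.982), Pcnt (0.981) and Dynlt1f (0.980), of which Katna1 and Pcnt act on microtubules and centrosomes. H2afv was most like Rnaseh2b (r = 0.996), Hmgn2 (0.988) and Tmpo (0.986). H3f3a was most like Phf21b (r = 0.974), Tmem131l (0.968) and Ube2e3 (0.968), H2afy was most like Ddx39b (0.996), Ssbp1 (0.996) and Polr1c (0.995), and H2afy2 was most like AI480526 (0.988), Sp4 (0.984) and Ypel1 (0.983). H1fx was most like Gm5577 (r = 0.975), Psmc3ip (0.971) and Zmym1 (0.965). Gm5577 lies antisense to H1fx and shares 755 bases with it. The 11 points share libraries and differ in depth, so the correlations carry no test. The points include erythroid-like cells, in which every member had its lowest WT mean. The WT mean of H3f3b was 137 CPM there, against 1860 to 3907 CPM in the other classes. The part of erythroid-like cells in these correlations was not tested.

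Over all cells of each embryo, 6 of the 9 variant genes were called higher in KO vs WT, and H3f3b and H1f0, which had the largest changes, were also called in KO vs Het. H3f3b was at 2522 ± 93.4 CPM in WT, 3244 ± 282 in Het and 3951 ± 141 in KO embryos. H1f0 was at 136 ± 6.84, 178 ± 11.1 and 236 ± 11.6. H2afy2 was at 209 ± 9.25 in WT and 199 ± 9.01 in KO embryos and was not called. A gene was called when its adjusted p was under 0.05 and its absolute log2 fold change above 0.25 (edgeR quasi-likelihood test, Benjamini-Hochberg over 17647 genes).

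In KO vs WT, 6 of 9 members were called, all higher, against 24.5% of all genes called. In Het vs WT, 4 of 9 were called, all higher, against 2.98% of all genes. That count was 0 with the library prefix as a covariate and 1 to 4 without 1 embryo each, with 1 left without WT 1 or WT 3. In KO vs Het, 2 of 9 were called, both higher, against 5.50% of all genes. The groups did not overlap in 8 members in KO vs WT (52.7% of all genes), in 7 in Het vs WT (19.8%) and in 2 in KO vs Het (20.3%). The count in KO vs Het was near the share of all genes. The median log2 fold change of the members in KO vs WT was 0.30, while that of all genes was -0.01. In Het vs WT the medians were 0.20 and 0.00. KO and Het were compared with the same WT embryos, so these comparisons share samples. H3f3a, H3f3b, H2afv, H1f0 and H1fx also stand in gene lists that the study drew from these embryos, so their direction is not independent evidence. Summed over all cells, more cells of a type and more RNA per cell cannot be told apart.

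H3f3b, on chromosome 11 (116021912 to 116027962, GRCm38, minus strand), was at 2511, 2434 and 2619.6 CPM in WT 1 to 3, at 3485, 3384, 3264 and 2843 in Het 1 to 4 and at 3789, 4042 and 4024 in KO 1 to 3. The groups did not overlap, and Het 4, which shares its library prefix with WT, was the lowest Het embryo. The log2 fold change was 0.65 ± 0.07 in KO vs WT (adjusted p = 6.33e-05), 0.36 ± 0.06 in Het vs WT (adjusted p = 0.0174) and 0.28 ± 0.06 in KO vs Het (adjusted p = 0.0186). Without WT 1, WT 2, WT 3, Het 1 or Het 2, the adjusted p in Het vs WT was 0.0808, 0.0622, 0.0542, 0.0575 or 0.0527. In KO vs Het it was 0.0886 without KO 2 and 0.0751 without KO 3, and without Het 4 the log2 fold change was 0.23, under the threshold. With the prefix as a covariate, the change was 0.17 in Het vs WT (adjusted p = 0.277) and 0.40 in KO vs WT (adjusted p = 0.00672).

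H3f3a, the other H3.3 gene, on chromosome 1 (180800832 to 180813943, minus strand), was at 2745, 2813 and 2664 CPM in WT, at 3271, 3274, 3179 and 2861 in Het and at 3125, 3445 and 3049 in KO embryos. The Het and KO embryos overlapped, and both lay above WT. Its log2 fold change was 0.23 ± 0.06 in KO vs WT (adjusted p = 0.0135) and 0.20 ± 0.06 in Het vs WT (adjusted p = 0.0637), so it was not called. With the prefix as a covariate its KO vs WT change was 0.05 (adjusted p = 0.772). Alignments of at least 90 bases within the last 300 bases of H3f3a transcripts matched 28 other annotated genes at 95% identity or more. Those of H2afz matched 6. For each of the 2 genes, 2 matches are counted in the deposited matrices, so the counts of H3f3a and H2afz are uncertain. H3f3b and H2afy each matched 1 gene, and the match of H2afy is counted there.

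H1f0, a single-exon gene on chromosome 15 (79028450 to 79030504, plus strand), was at 144, 132 and 132 CPM in WT, at 189, 163, 178 and 181 in Het and at 227, 232 and 249 in KO embryos. No groups overlapped, and Het 4 lay among the other Het embryos. The log2 fold change was 0.80 ± 0.06 in KO vs WT (adjusted p = 7.13e-06), 0.39 ± 0.06 in Het vs WT (adjusted p = 0.00851) and 0.41 ± 0.06 in KO vs Het (adjusted p = 0.00132). H1f0 was called in all these comparisons without any 1 embryo. With the prefix as a covariate the change was 0.41 in Het vs WT (adjusted p = 0.0955) and 0.83 in KO vs WT (adjusted p = 0.00108). H1fx, on chromosome 6, was at 227, 230.2 and 228 in WT, at 256, 258, 253 and 265 in Het and at 287, 284 and 262 in KO embryos. Its log2 fold change was 0.28 ± 0.04 in KO vs WT (adjusted p = 0.000586) and 0.17 ± 0.04 in Het vs WT (adjusted p = 0.0385), below the fold threshold. The KO and Het embryos overlapped for H1fx, and with equal weight of all 11 classes its KO vs WT change turned to -0.06 (adjusted p = 0.666, limma).

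**Figure D2:**
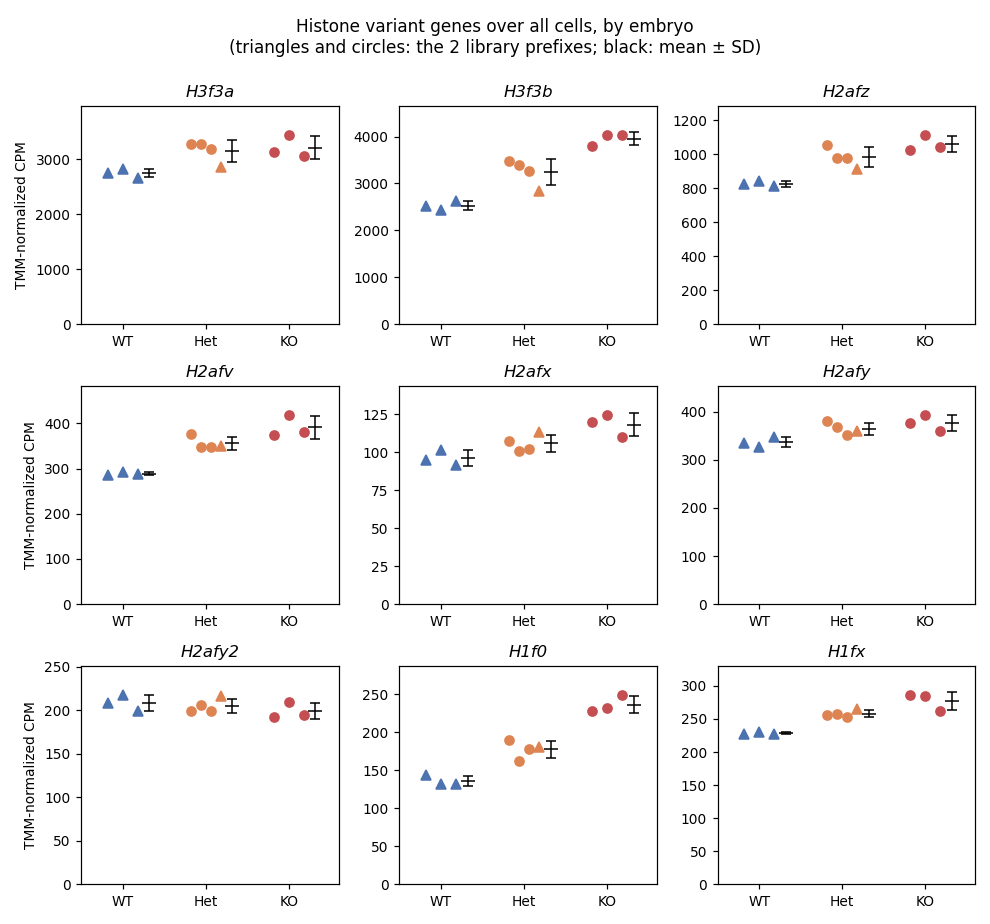
TMM-normalized CPM of the 9 genes over all cells, 1 point per embryo, with the mean and SD in black. Triangles and circles mark the library prefixes. H3f3b and H1f0 separated all 3 groups, and H2afy2 separated none.

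Among the H2A.Z genes, H2afz (chromosome 3) was at 822, 845 and 810.3 CPM in WT, at 1056, 980.2, 979.5 and 913 in Het and at 1022, 1115 and 1040.2 in KO embryos. H2afv (chromosome 11) was at 285, 292 and 288 in WT, at 377, 348, 347 and 349 in Het and at 374, 419 and 379.8 in KO embryos. Both were above WT in every Het and KO embryo, and Het and KO overlapped. The KO vs WT log2 fold change was 0.36 ± 0.06 for H2afz (adjusted p = 0.000691) and 0.44 ± 0.05 for H2afv (adjusted p = 0.000134). With the prefix as a covariate H2afz was at 0.22 (adjusted p = 0.104). The Het vs WT change of H2afz, 0.25 ± 0.05 (adjusted p = 0.0304), lay at the fold threshold, and without any 1 WT embryo, Het 1, Het 2 or Het 3 its adjusted p was between 0.0676 and 0.114. That of H2afv was 0.30 ± 0.05 (adjusted p = 0.0119), and its adjusted p was 0.0606 without WT 1 and 0.0506 without WT 3.

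H2afx (chromosome 9) was at 95.2, 102 and 91.9 CPM in WT, at 108, 101, 102 and 113 in Het and at 119.7, 125 and 110.1 in KO embryos. Every KO embryo was above every WT embryo, and the Het embryos overlapped with both. The KO vs WT log2 fold change was 0.30 ± 0.06 (adjusted p = 0.00323). This direction turned with equal weight of all 11 classes, where H2afx was at -0.12 (adjusted p = 0.316, limma). Of the macroH2A genes, H2afy (chromosome 13) was at 335, 327 and 348 in WT and at 376, 394 and 360.3 in KO embryos, with a log2 fold change of 0.16 ± 0.05 (adjusted p = 0.0198) that was below the fold threshold. Its adjusted p was 0.0586 without WT 1, 0.0841 without WT 2, 0.0529 without KO 1 and 0.0987 without KO 2. H2afy2 (chromosome 10) was at 209, 218 and 199 in WT, at 198, 206, 199 and 216 in Het and at 192, 209 and 195 in KO embryos, and its groups overlapped in every comparison.

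Cells of the progenitor-like classes were counted in each library, with no test. Of 7159 to 8103 cells per WT embryo, 109 to 149 were radial glia-like, 245 to 284 subventricular zone progenitor-like and 164 to 197 ganglionic eminence progenitor-like. Of 5147 to 6176 cells per KO embryo, the counts were 119 to 220, 297 to 401 and 219 to 234. Summed over a list of 16 S phase genes, the level lay between 385 and 413 CPM in WT, between 423 and 459 in Het and between 443 and 501 in KO embryos. The list of 16 mitosis genes was at 535 ± 51.5 CPM in WT, 612 ± 72.3 in Het and 704 ± 24.8 in KO embryos. Of these lists, 10 of 16 S phase genes and 13 of 16 mitosis genes were called higher in KO vs WT over all cells, and none lower, where 24.5% of all genes were called in either direction. As an alternative chosen after seeing the data, levels were averaged with equal weight over the 8 neural classes, so that class sizes did not enter. H3f3b then changed by 0.61 (adjusted p = 0.000154) and H1f0 by 0.61 (adjusted p = 1.56e-06) in KO vs WT. H2afx changed by 0.10 (adjusted p = 0.232), against 0.30 over all cells.

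Promoter sequences were compared among the members. The 250 bases before the start of a gene were taken from RefSeq (GRCm38.p6), which held 8 of 9 members. H2afx was not matched. RefSeq and GENCODE place some starts differently, so the windows of H3f3a, H3f3b, H2afy and H2afy2 lay inside the GENCODE gene and that of H1fx partly so. The window of H1f0 ended at 79028211, short of its GENCODE start at 79028450, so the bases next to that start were not searched. CCAAT was searched on both strands and is shown in capitals, as ATTGG where it lies on the other strand. H3f3b, the H3.3 gene that was called in KO vs WT over all cells, is shown beside H3f3a, which was not called there but was in 3 of 11 classes. H2afv and H1f0, which were called over all cells, are shown with H2afy2, which was called only in 1 class, where it was lower.
H3f3b, chr11:116024505-116024754, minus strand: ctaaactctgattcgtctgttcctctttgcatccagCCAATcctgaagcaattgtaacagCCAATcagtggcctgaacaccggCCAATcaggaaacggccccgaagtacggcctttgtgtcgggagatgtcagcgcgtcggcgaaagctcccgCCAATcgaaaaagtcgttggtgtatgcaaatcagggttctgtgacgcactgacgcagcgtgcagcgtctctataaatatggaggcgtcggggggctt
H3f3a, chr1:180813606-180813855, minus strand: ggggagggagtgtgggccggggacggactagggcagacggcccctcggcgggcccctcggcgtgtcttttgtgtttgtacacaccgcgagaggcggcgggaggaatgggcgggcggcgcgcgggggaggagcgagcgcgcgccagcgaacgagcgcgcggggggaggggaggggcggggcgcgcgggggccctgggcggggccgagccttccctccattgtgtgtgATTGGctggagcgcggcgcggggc
H2afv, chr11:6444444-6444693, minus strand: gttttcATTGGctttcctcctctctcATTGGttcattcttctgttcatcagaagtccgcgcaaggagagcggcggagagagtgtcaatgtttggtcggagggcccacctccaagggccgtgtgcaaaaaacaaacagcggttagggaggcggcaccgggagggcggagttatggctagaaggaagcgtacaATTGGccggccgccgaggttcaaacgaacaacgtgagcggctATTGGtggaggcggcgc
H1f0, chr15:79027962-79028211, plus strand: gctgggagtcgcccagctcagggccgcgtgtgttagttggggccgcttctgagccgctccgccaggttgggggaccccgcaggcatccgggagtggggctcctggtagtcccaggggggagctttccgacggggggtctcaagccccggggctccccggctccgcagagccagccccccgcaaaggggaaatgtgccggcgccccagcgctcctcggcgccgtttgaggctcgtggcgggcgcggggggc
H2afy2, chr10:61783865-61784114, minus strand: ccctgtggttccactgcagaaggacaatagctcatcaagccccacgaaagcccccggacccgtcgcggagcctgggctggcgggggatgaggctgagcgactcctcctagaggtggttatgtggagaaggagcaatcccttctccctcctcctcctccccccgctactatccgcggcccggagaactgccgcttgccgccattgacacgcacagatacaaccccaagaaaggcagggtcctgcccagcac
H3f3b and H2afv each held 4 CCAAT, H2afz held 2 and H3f3a held 1, while H2afy, H2afy2, H1f0 and H1fx held 0. Of 32851 RefSeq windows of that length, 33.8% held at least 1 and 0.840% held at least 4. H3f3b also held TATAAA, which 12.4% of windows held on either strand. H3f3a held 4 GGGCGG, a number that 4.09% of windows reached, and H3f3b held 0. GC content was 54.0% in H3f3b, 57.2% in H2afv and 77.2% in H3f3a. H1f0 and H1fx were called in KO vs WT with no CCAAT in this window, which for H1f0 left out the bases next to its GENCODE start.

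The H3f3b share of H3.3 transcripts was higher in Het and KO than in WT embryos, though no test of it passed the correction. H3f3b UMIs made up 47.8%, 46.4% and 49.6% of H3f3a plus H3f3b UMIs in WT 1 to 3, 51.6%, 50.8%, 50.7% and 49.8% in Het 1 to 4 and 54.8%, 54.0% and 56.9% in KO 1 to 3. No groups overlapped. The share was higher by 7.31 points in KO vs WT (exact two-sided permutation test, p = 0.1, the smallest p that 3 against 3 can give, adjusted p = 0.18 over 9 tests). It was higher by 2.81 points in Het vs WT and by 4.50 points in KO vs Het, each with an exact p of 0.0286, the smallest for 3 against 4, and an adjusted p of 0.129. None passed the correction. The share does not depend on library scaling, but its level depends on how well each transcript end is captured and mapped. The share differed between classes in WT, from 41.4% ± 1.71 in layer V-VI-like to 55.7% ± 1.22 in subventricular zone progenitor-like cells among neural classes. In layer II-IV-like neurons it was 48.5% ± 1.41 in WT, 52.0% ± 0.673 in Het and 57.3% ± 1.37 in KO embryos, and in layer V-VI-like neurons 41.4% ± 1.71, 44.5% ± 0.311 and 50.4% ± 2.01. In both these classes the 3 groups did not overlap. In every other neural class WT and Het embryos overlapped, while each KO embryo lay above each WT embryo. Het and KO embryos also overlapped in layer I-like and subventricular zone progenitor-like cells.

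**Figure D3:**
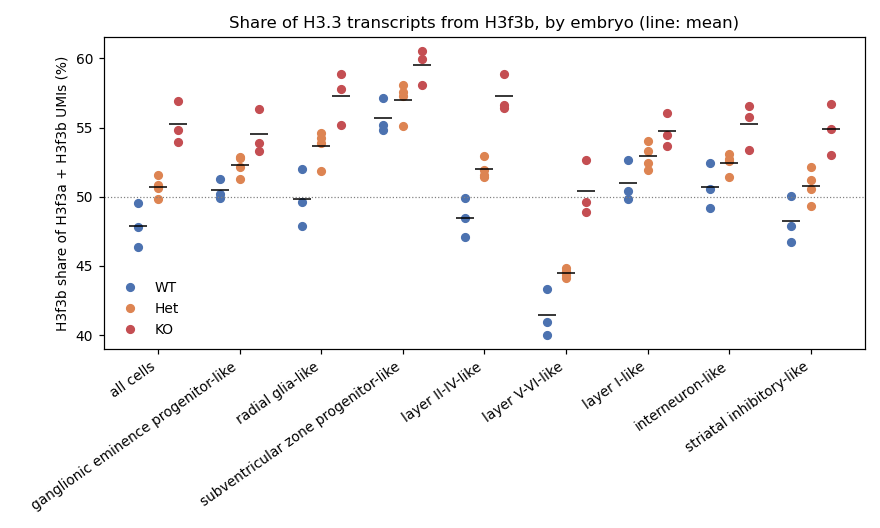
H3f3b as a percent of H3f3a plus H3f3b UMIs, by embryo (points) over all cells and in 8 neural classes, with group means as lines. Over all cells the WT embryos lay at 46.4 to 49.6% and the KO embryos at 54.0 to 56.9%.

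The shares of the other pairs differed by fewer points in KO vs WT, at -1.05 for H2afz and 3.73 for H2afy. In Het vs WT the differences were -0.693 and 2.28 points, and in KO vs Het -0.352 and 1.45. Differences between pairs were not tested. H2afz made up 74.1% ± 0.281 of H2afz plus H2afv UMIs in WT, 73.4% ± 0.729 in Het and 73.1% ± 0.323 in KO embryos (KO vs WT exact p = 0.1, adjusted p = 0.18). H2afy made up 61.7% ± 1.80 of H2afy plus H2afy2 UMIs in WT, 64.0% ± 1.34 in Het and 65.5% ± 0.649 in KO embryos (KO vs WT exact p = 0.1, adjusted p = 0.18). For both pairs KO and WT did not overlap, and Het overlapped with each.

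Within classes, where class sizes do not enter, H3f3b was called higher in KO vs WT in all 8 neural classes and H1f0 in 7 of them. With the library prefix as a covariate, H3f3b was called in 4 of these classes (layer I-like, layer II-IV-like, layer V-VI-like and striatal inhibitory-like) and H1f0 in 4 (layer II-IV-like, layer V-VI-like, striatal inhibitory-like and subventricular zone progenitor-like). The prefix effect in such fits comes only from Het 4 against Het 1 to 3. Each class was fitted separately, which gave 99 gene and class pairs for the members. In KO vs WT, 31 of 99 were called, 30 of them higher, against 14.6% of all gene and class pairs. In Het vs WT, 11 of 99 were called, all higher, against 1.65%, and in KO vs Het 6 of 99, all higher, against 3.33%. With the prefix as a covariate, 10 pairs were called in KO vs WT and 1 in Het vs WT. Without Het 4, the Het embryo with the prefix of WT, 23 pairs were called in Het vs WT. It was 7 without WT 1, 5 without WT 3 and 7 without Het 1. The share of all gene and class pairs called with the covariate, or without an embryo, is not given. These counts therefore have no background beside them.

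In layer II-IV-like neurons, 3 of 9 members were called higher in KO vs WT, which was near the 30.1% of all genes called there. H3f3b was at 2647, 2566 and 2761 CPM in WT, at 3752, 3512, 3385 and 3109.7 in Het and at 4074, 4235 and 4430.3 in KO embryos. Its log2 fold change was 0.68 ± 0.06 in KO vs WT (adjusted p = 9.85e-07). H1f0 was at 123, 107 and 107 in WT, at 163, 134, 143 and 161 in Het and at 195, 195 and 228 in KO embryos, with a log2 fold change of 0.87 ± 0.08 (adjusted p = 2.07e-06). For both genes the 3 groups did not overlap. H2afv changed by 0.32 ± 0.05 (adjusted p = 0.000182), and H2afz by 0.10 ± 0.05 (adjusted p = 0.126). The summed S phase list was at 256 ± 2.27 CPM in WT and 258 ± 4.09 in KO embryos in these cells.

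In layer V-VI-like neurons, 3 members were also called higher, where 23.4% of genes were called. H1f0 was at 65.4, 60.7 and 66.0 CPM in WT, at 78.0, 74.3, 76.4 and 79.2 in Het and at 109.7, 99.4 and 108 in KO embryos, and again no groups overlapped. The KO vs WT log2 fold change was 0.72 ± 0.05 for H1f0 (adjusted p = 9.32e-07), 0.69 ± 0.06 for H3f3b (adjusted p = 3.51e-06) and 0.26 ± 0.06 for H1fx (adjusted p = 0.00411). Within the second prefix alone, KO 1 to 3 against Het 1 to 3, H1f0 was higher by 0.47 (adjusted p = 9.39e-05) and H3f3b by 0.32 (adjusted p = 0.000842) in these neurons. In layer II-IV-like neurons the same comparison gave 0.49 for H1f0 (adjusted p = 0.000397) and 0.26 for H3f3b (adjusted p = 0.00236). In other neural classes, the adjusted p of H3f3b was 0.0430 in layer I-like, 0.0316 in radial glia-like (at 0.23, below the fold threshold), 0.0980 in subventricular zone progenitor-like, 0.146 in striatal inhibitory-like, 0.469 in interneuron-like and 0.799 in ganglionic eminence progenitor-like cells. That of H1f0 was 0.0230 in subventricular zone progenitor-like cells, and in interneuron-like, striatal inhibitory-like, ganglionic eminence progenitor-like, radial glia-like and layer I-like cells it was 0.0508, 0.111, 0.260, 0.264 and 0.917. With the prefix as a covariate over all embryos, H1fx in layer V-VI-like neurons was at 0.31 (adjusted p = 0.0580) in KO vs WT.

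In striatal inhibitory-like cells, 6 members were called higher in KO vs WT, where 20.0% of genes were called. H2afz, at 939, 955 and 942 CPM in WT and 1318, 1353 and 1276 in KO embryos, changed by 0.48 ± 0.06 (adjusted p = 2.67e-05). H1fx, at 276, 273 and 274 in WT and 389, 392 and 347 in KO embryos, changed by 0.45 ± 0.06 (adjusted p = 8.16e-05). Neither gene overlapped between WT and KO. H3f3b, H1f0, H2afv and H3f3a changed by 0.65, 0.75, 0.51 and 0.27. Under the prefix covariate H3f3b, H1f0 and H2afz stayed called, H3f3b at 0.32 (adjusted p = 0.0163), and H1fx at 0.34 (adjusted p = 0.0704), H2afv at 0.34 (adjusted p = 0.0860) and H3f3a at 0.05 (adjusted p = 0.850) did not. The summed S phase list was at 425 ± 34.5 CPM in WT and 664 ± 79.9 in KO embryos, and its part in these changes was not tested. In interneuron-like cells, 4 members were called higher (8.64% of genes), which were H3f3b at 0.69 ± 0.11, H1f0 at 0.72 ± 0.12, H3f3a at 0.43 ± 0.10 and H1fx at 0.40 ± 0.08. With the covariate none of these passed, with H3f3b at 0.32 (adjusted p = 0.668), H1f0 at 0.54 (adjusted p = 0.566), H3f3a at 0.13 (adjusted p = 0.953) and H1fx at 0.30 (adjusted p = 0.706). The standard error of H1f0 in interneuron-like cells was 0.20 with the covariate, against 0.12 without it. In layer I-like cells, 4 members were called higher (5.37% of genes), which were H3f3b at 0.59 ± 0.08, H2afv at 0.49 ± 0.11, H3f3a at 0.38 ± 0.08 and H2afz at 0.35 ± 0.08. With the covariate H3f3b stayed called at 0.48 (adjusted p = 0.0409), and H2afv at 0.59 (adjusted p = 0.130), H3f3a at 0.18 (adjusted p = 0.644) and H2afz at 0.43 (adjusted p = 0.119) did not.

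Over the 3 progenitor-like classes, 11 of 27 gene and class pairs were called in KO vs WT, 10 higher and 1 lower, against 13.8% of all pairs there. In radial glia-like cells, 5 members were called higher, with H3f3b at 0.67 ± 0.08, H1f0 at 0.60 ± 0.10, H2afz at 0.44 ± 0.10, H2afv at 0.30 ± 0.08 and H1fx at 0.26 ± 0.07. Under the prefix covariate no call remained there, with H3f3b at 0.38 (adjusted p = 0.0623), H1f0 at 0.40 (adjusted p = 0.162), H2afz at 0.12 (adjusted p = 0.727), H2afv at 0.20 (adjusted p = 0.460) and H1fx at 0.27 (adjusted p = 0.241). In ganglionic eminence progenitor-like cells, 3 were called higher, with H1f0 at 0.50 ± 0.07, H3f3b at 0.49 ± 0.09 and H1fx at 0.28 ± 0.07. With the covariate these calls ended too, with H1f0 at 0.44 (adjusted p = 0.179), H3f3b at 0.12 (adjusted p = 0.877) and H1fx at 0.18 (adjusted p = 0.798). In subventricular zone progenitor-like cells, H3f3b at 0.46 ± 0.06 and H1f0 at 0.43 ± 0.06 were called higher and H2afy2 at -0.31 ± 0.07 lower (adjusted p = 0.00494). With the covariate H1f0 stayed called at 0.44 (adjusted p = 0.0283), while H3f3b was at 0.19 (adjusted p = 0.0950) and H2afy2 at -0.15 (adjusted p = 0.50). H2afy2 there was at 221, 230.1 and 219 CPM in WT, at 199, 192, 186 and 213 in Het and at 179.5, 188 and 175 in KO embryos, without overlap between groups of any pair but Het and KO. In the same cells, the S phase list was at 1153 ± 197 CPM in WT and 765 ± 22.6 in KO embryos and the mitosis list at 2351 ± 480.0 and 1441 ± 202. H2afx was called in 0 of 11 classes by edgeR, with 3 at an unadjusted p under 0.05, and in 0 by DESeq2. H2afy was likewise called in 0 of 11 by either, with 4 at an unadjusted p under 0.05. In erythroid-like, microglia-like and mural and fibroblast-like cells, 0 members were called by edgeR, where 7.16%, 0.0236% and 0.286% of all genes were. At an unadjusted p under 0.05 there were 1, 2 and 1 members, of 9, and 524 of 2359, 801 of 4240 and 1186 of 9442 genes.

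**Figure D4:**
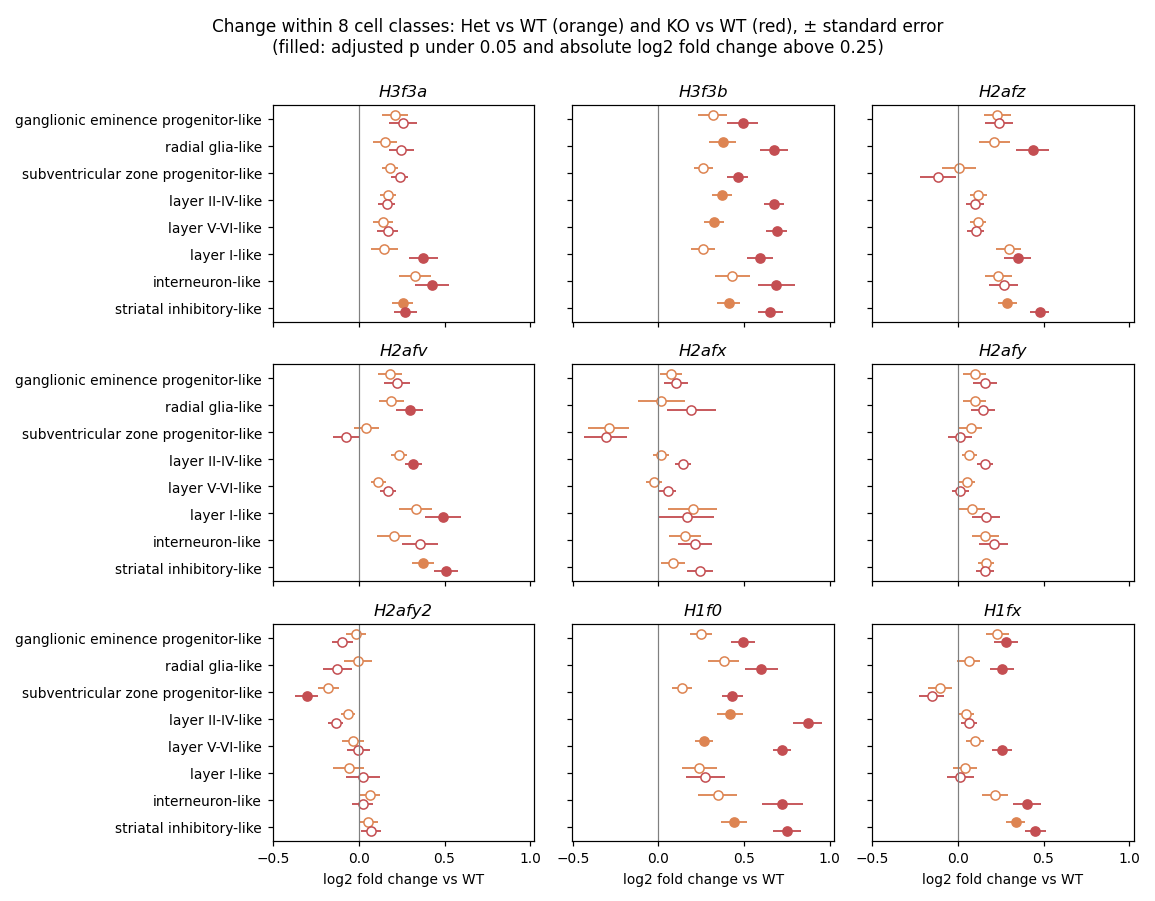
Log2 fold change of the 9 genes in 8 neural classes, with standard errors, for Het vs WT (orange) and KO vs WT (red). Filled points passed both thresholds. H3f3b was filled in KO vs WT in all 8 classes, at 0.46 to 0.69, and H2afy2 was filled only in subventricular zone progenitor-like cells, at -0.31.

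Differences of the change between classes were tested against layer II-IV-like cells within each embryo (limma). In KO vs WT, 6 of 90 gene and class pairs passed an adjusted p of 0.05, against 5.59% of all pairs. The members' count was thus near the background share, and the 6 pairs are given as values. H1f0 changed less in subventricular zone progenitor-like cells, by a difference of -0.44 ± 0.11 (adjusted p = 0.0428), and so did H2afv, by -0.39 ± 0.10 (adjusted p = 0.0431). H2afz and H1fx changed more in striatal inhibitory-like cells, by 0.38 ± 0.05 (adjusted p = 0.00661) and 0.39 ± 0.07 (adjusted p = 0.0161). In layer V-VI-like cells, the change of H1fx was larger by 0.19 ± 0.04 (adjusted p = 0.0213) and that of H2afy smaller, by -0.14 ± 0.03 (adjusted p = 0.0312). The number called was 1 without WT 3 or KO 2, 2 without WT 1, WT 2 or KO 1 and 3 without KO 3. In Het vs WT and KO vs Het, 0 of 90 were called by limma, with 5 and 9 at an unadjusted p under 0.05.

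Across single layer II-IV-like cells, the 10th, 50th and 90th percentiles of H3f3b were compared. The median over cells was 27.3, 26.3 and 28.9 UMIs per 10000 UMIs in WT, 38.1, 35.8, 34.9 and 32.1 in Het and 41.0, 42.8 and 46.2 in KO embryos. The 10th percentile was 16.2 ± 0.675 in WT and 28.7 ± 1.96 in KO embryos, and the 90th percentile 44.1 ± 1.38 and 61.0 ± 3.61. KO cells at the 10th percentile of H3f3b were thus at about the WT median. For H3f3a, the median was between 28.2 and 29.4 in WT, between 29.6 and 33.5 in Het and between 30.8 and 32.7 in KO embryos. The median UMIs of these cells were 13894.5 to 18219 in WT and 16386.5 to 19068 in KO embryos.

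**Figure D5:**
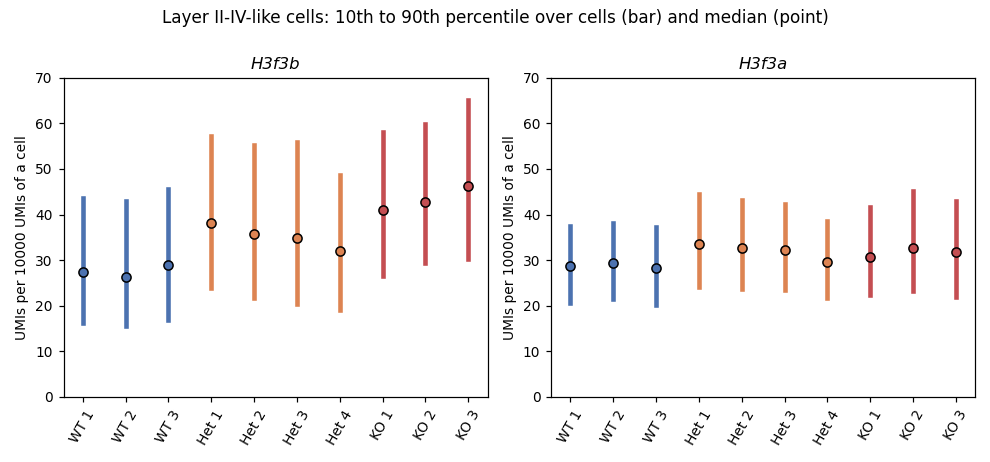
UMIs of H3f3b and H3f3a per 10000 UMIs of a cell in layer II-IV-like cells of each embryo. Bars run from the 10th to the 90th percentile over cells and points are medians. For H3f3b, the medians of the 3 WT embryos lay at 26.3 to 28.9 and those of the 3 KO embryos at 41.0 to 46.2.

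Genes that place or exchange these histones were counted in the same way, against the 24.5% of all genes called in KO vs WT over all cells and the 5.50% in KO vs Het. Of 9 H3.3 deposition genes, such as Hira, Daxx and Atrx, 0 were called in KO vs WT by edgeR, with 5 at an unadjusted p under 0.05 (8288 of 17647 genes were), and 1 was called by DESeq2. Of 14 genes for H2A.Z exchange, 1 was called higher and 1 lower. Actl6a, an actin-related subunit of several remodelers, rose by 0.49 ± 0.05 (adjusted p = 8.52e-05), from 62.1 ± 2.20 CPM in WT to 87.1 ± 4.45 in KO embryos. Srcap, the ATPase of an H2A.Z-loading complex, fell by 0.30 on the log2 scale (adjusted p = 0.00628), from 25.9 ± 0.0906 to 21.0 ± 0.984 CPM. Of 11 linker and general histone chaperone genes, 1 was called, Spty2d1, higher by 0.30 ± 0.07 (adjusted p = 0.00554). Of 7 other variant histone genes, 5 were named in the deposited matrices, and 2 of these were measured well enough to test. Cenpa, the centromeric H3 variant, rose by 0.60 ± 0.07 (adjusted p = 9.39e-05), from 33.1 ± 1.77 to 50.1 ± 2.12 CPM. Of 62 clustered histone genes tested, 24 were called higher and 3 lower in KO vs WT, and in KO vs Het 0 were called by edgeR or DESeq2, with 7 at an unadjusted p under 0.05. How well the 3′ kit captures the transcript ends of clustered histone genes was not tested, so their counts may not follow their expression. The medians of the lists were 0.10 for H3.3 deposition, 0.07 for H2A.Z exchange, 0.37 for S phase, 0.42 for mitosis and 0.29 for clustered histones, against 0.30 for the members.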

How the data were processed

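Single-cell RNA-seq libraries (10X 3′ version 3) of 3 WT, 4 Het and 3 KO embryonic cortices were used, 1 per embryo. The authors aligned reads to mm10 and deposited raw UMI counts per gene and barcode. Per the file headers, Cell Ranger 6.0.2 was used, while the methods name another release. The study's methods give a higher number of cells after these filters than found here, and its results a lower one. Barcodes needed 1000 or more UMIs, of which no more than 10% could be mitochondrial. Doublets were scored with Scrublet (scanpy 1.11.5), its own thresholds marked 0.0128% to 2.15% of cells, and the top 4.80% to 8.31% were removed only in an alternative. At most 19 barcodes were shared by any pair of libraries. Seurat 5.3.0 (R 4.3.3) clustered 2000 variable genes, without the members, after integration of the embryos (30 components, resolution 0.4), and clusters were named from fixed marker lists. Clusters that met the naming criteria for no class (marker score, at least 3 markers detected, leading genes not against the name) were not tested. The largest held 3796 cells and was led by Fam19a1, Tfap2d and Thsd7a. Others were a Ttr-led cluster with a choroid plexus score of 3.83 and a shallow cluster with radial glia genes in its top 10. Unnamed cells numbered 1077 to 1186 per WT embryo, 1078 in Het 4, 565 to 668 in Het 1 to 3 and 483 to 727 in KO. They stayed in the sums over all cells. Oligodendrocyte precursor-like and endothelial-like cells, with under 20 cells in some embryos, were also left out of the class tests. Endothelial-like cells numbered 342 in Het 3 and 12 to 57 in each other embryo, and stayed in the sums over all cells.

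Sums of UMIs, for each embryo as a whole and for each class in it, were fitted over all 10 embryos with edgeR 4.0.16 (filterByExpr, TMM, quasi-likelihood F-test). Values are TMM-normalized CPM. Differences between classes were fitted with limma 3.58.1 on log2 CPM with a prior count of 0.5, and shares were compared with exact permutation tests. DESeq2 1.42.0, other filters and normalizations, the library prefix, the replicate number and leaving out each embryo were tried as alternatives. On simulated counts, edgeR recovered 74.0% of 200 genes changed by a log2 of 1 in KO vs WT among 17647 genes over all cells. Every member changed by less than that over all cells, and recovery at smaller changes or with a prefix effect was not simulated. UMI counts bound the precision by counting error only. All 9 members passed the filter on low counts in every class. The 3′ kit keeps strand, but strand use in counting is not given in the sources used here, so H3f3a, H2afy, H2afy2, H1f0 and H1fx, which overlap a separately counted gene on the opposite strand (Aifm2 for H2afy2), may share reads with it. RefSeq sequences and GENCODE positions are of GRCm38, the build of mm10. The named genes were all members, the called genes of the chromatin lists with the largest KO vs WT change (at most 3 per direction) and the 3 most alike genes per member. The members and lists were chosen with earlier results of these data known.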

Additional observations from a re-analysis of the deposited data

Results flagged for a closer look

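Within the Het embryos, 6 of 111 groups of 4 values held an embryo far from the others by Dixon's criterion, and chance gives about 1 in 20. Het 4, which carries the library prefix of WT, was low for H3f3b in subventricular zone progenitor-like cells, at 4061 CPM, for H2afz in layer V-VI-like cells, at 476 CPM, and for the H2afz share of H2afz plus H2afv UMIs, at 72.3%. Het 1 was high for H2afv over all cells, at 377 CPM. Het 3 was low for H1fx in layer II-IV-like cells, at 189 CPM, and high for H2afy2 in microglia-like cells, at 57.9 CPM.

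The KO vs WT change differed from that in layer II-IV-like cells by limma's test of the difference for 6 of 90 pairs of gene and class, near the 5.59% of all pairs that did so, and for 1 to 5 pairs without 1 embryo each. The differences on the log2 scale were 0.38 for H2afz and 0.39 for H1fx in striatal inhibitory-like cells, 0.19 for H1fx and -0.14 for H2afy in layer V-VI-like cells, and -0.39 for H2afv and -0.44 for H1f0 in subventricular zone progenitor-like cells.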

How the results depend on the processing

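The count of members called over all cells in KO vs WT stayed between 4 and 7 under all alternatives, and H3f3b and H1f0 kept an adjusted p under 0.05 there in every one. In Het vs WT the count was 0 with the library prefix as a covariate, 2 with equal weight of all classes or of the neural classes only (the latter chosen after seeing the data), and 1 to 4 without 1 embryo each. In KO vs Het it was 1 with the replicate block, with the prefix as a covariate, within the second prefix, and with equal weight of all or of the neural classes, and 1 to 2 without 1 embryo each. Within the second prefix 6.14% of all genes were called. For the other alternatives of this section the share of all genes or pairs called is not given.

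Within classes, the prefix as a covariate gave 1 call (Het vs WT) and 10 calls (KO vs WT), resolution 0.8 gave 10 in KO vs Het, and leaving out 1 embryo gave 5 to 23 in Het vs WT. The differences between classes numbered 10 without integration, 16 with library totals and no TMM, and 1 to 5 without 1 embryo each, in settings chosen after seeing the data. With equal weight of classes, the share of H3f3b was higher by 5.47 points in KO vs WT and 2.61 in KO vs Het, and that of H2afz changed by -0.621 and 0.166.

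Several changes turned sign, among them H2afx and H1fx, which were called higher in KO vs WT. H3f3a in KO vs Het was at -0.0172 with the replicate block, -0.0155 with the prefix and -0.0157 within the second prefix, and between -0.0297 and 0.0607 without 1 embryo each. With the prefix, H2afy2 was at 0.0538 (Het vs WT) and 0.0360 (KO vs WT). With equal weight of all classes, in which erythroid-like and microglia-like cells with few counts weigh as much as others, H2afx was at -0.0180 in Het vs WT, -0.122 in KO vs WT and -0.104 in KO vs Het, H2afy at -0.0294 and H1fx at -0.0621 in KO vs WT, and H2afy at -0.0610, H1fx at -0.146 and H2afv at -0.00661 in KO vs Het. The cause of these differences was not tested.

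Deviations of same-numbered embryos from their group means correlated between -0.213 and 0.142. Differently numbered embryos were not correlated for comparison, so these values do not decide whether replicate numbers pair the samples. With the replicate block 4 members were called in Het vs WT, 6 in KO vs WT and 1 in KO vs Het, and within classes 23, 37 and 6. The prefix and the genotype cannot be told apart in KO vs WT except through Het 4. Each library is a separate embryo, and which embryos shared a litter is not given in the sources used here.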
